A study of Mus musculus with 18 samples.

Results

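The genes described here are 34 listed ribosome biogenesis genes, whose products make ribosomal RNA and assemble the ribosomal subunits in the nucleolus. They were found by symbol, ignoring case, in a table of RNA-seq values. Of the 34, 33 had a row among the 20298 genes of the table, and Dkc1 was not analysed here. Values are RPKM, the reads of a gene per kilobase of its length, scaled to the mapped reads of the library, so that levels of different genes can be compared per length. Each gene was measured in 18 libraries in 6 groups of 3. The groups were WT and DKI Ly6C+ CCR2+ monocytes from the bone marrow of C57BL/6 mice, untreated (day 0) or cultured for 3 or 6 days with 20 ng/mL GM-CSF, a cytokine that drives monocytes into monocyte-derived cells (MDCs). All DKI groups, those of day 0 included, carried substitutions in the N-domains of both Stat5a and Stat5b, which leave STAT5 dimers but prevent tetramers. The monocytes were enriched with a negative selection kit, and the day 3 and day 6 libraries are of whole cultures. In such bulk libraries, fewer cells of a type and less RNA per cell cannot be told apart. No label ties a library to an animal, and the study describes 3 independent experiments, so p-values measure the spread between 3 libraries.

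Ribosome production starts when RNA polymerase I transcribes the long precursor of the ribosomal RNAs. Small nucleolar ribonucleoproteins (snoRNPs) then modify it, those of the box C/D class by methylating riboses and those of the box H/ACA class by making pseudouridine. Assembly factors, among them the PeBoW complex of the large subunit, fold and trim the precursor with ribosomal proteins until both subunits leave the nucleus, and the whole programme is known to be active in growing and dividing cells.

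Promoter sequences of RefSeq on build GRCm38.p6 (mm10), from 250 bases before to 50 bases after the transcription start, were found for 29 of the 33 genes. They were searched on both strands for CACGTG, the E-box bound by MYC and its partners, and for TTCNNNGAA, the core motif bound by STAT factors. The 5 promoters below are shown because their genes carry the results that follow, and the capitals mark CACGTG. Pes1, Nop2 and Nop16 rose in WT cells in culture with GM-CSF, Ltv1 fell, and Polr1c was the member called lower in DKI cells on day 6.
Pes1 (chr11:3963725-3964024, plus strand): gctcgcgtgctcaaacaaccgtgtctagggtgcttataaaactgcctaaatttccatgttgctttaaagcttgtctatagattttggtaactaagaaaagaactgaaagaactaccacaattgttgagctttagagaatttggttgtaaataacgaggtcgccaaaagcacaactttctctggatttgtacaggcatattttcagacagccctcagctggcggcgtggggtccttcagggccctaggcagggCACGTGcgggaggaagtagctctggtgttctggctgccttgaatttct
Nop2 (chr6:125131633-125131932, plus strand): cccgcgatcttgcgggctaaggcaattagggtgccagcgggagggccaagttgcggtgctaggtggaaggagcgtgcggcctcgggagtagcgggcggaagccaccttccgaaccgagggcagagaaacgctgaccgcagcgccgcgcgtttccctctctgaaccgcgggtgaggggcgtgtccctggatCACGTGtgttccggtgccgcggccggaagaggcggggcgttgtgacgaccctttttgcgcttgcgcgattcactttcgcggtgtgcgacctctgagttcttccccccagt
Ltv1 (chr10:13193088-13193387, minus strand): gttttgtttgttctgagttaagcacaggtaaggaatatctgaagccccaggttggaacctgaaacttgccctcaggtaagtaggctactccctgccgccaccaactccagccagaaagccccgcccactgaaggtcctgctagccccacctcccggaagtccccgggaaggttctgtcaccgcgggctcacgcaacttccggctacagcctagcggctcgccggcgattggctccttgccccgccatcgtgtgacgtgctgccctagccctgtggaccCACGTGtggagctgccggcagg
Nop16 (chr13:54590025-54590324, minus strand): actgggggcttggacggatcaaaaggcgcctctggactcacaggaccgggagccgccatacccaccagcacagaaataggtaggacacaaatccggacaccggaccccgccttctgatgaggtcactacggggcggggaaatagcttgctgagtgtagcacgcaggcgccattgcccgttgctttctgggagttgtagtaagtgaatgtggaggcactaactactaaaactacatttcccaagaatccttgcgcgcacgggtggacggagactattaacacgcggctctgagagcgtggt
Polr1c (chr17:46247996-46248295, minus strand): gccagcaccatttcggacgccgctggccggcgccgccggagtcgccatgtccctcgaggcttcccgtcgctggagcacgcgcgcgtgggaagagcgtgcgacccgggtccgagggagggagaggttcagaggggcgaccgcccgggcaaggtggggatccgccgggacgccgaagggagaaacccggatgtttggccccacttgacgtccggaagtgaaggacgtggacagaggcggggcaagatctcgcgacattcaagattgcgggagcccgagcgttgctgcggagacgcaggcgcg
Counted from the start site as 0, CACGTG began at -60 in Nop2, at 2 in Pes1 and at 28 in Ltv1, so that these windows held it in a pair of genes that rose and in a gene that fell. It was also found at 17 in Wdr43 and at 37 in Utp20, of which neither was called in any comparison. These 5 genes are 17.2% of the 29, beside 12.2% of 8266 expressed genes (mean RPKM over 2 in any group) and 8.09% of all 27025 genes with a promoter. All 5 began within 100 bases of the start site. TTCNNNGAA was found in 3 members (10.3%), Nob1, Nop58 and Polr1b, beside 8.26% of the expressed genes and 9.55% of all genes. The shares are given as a description, with no test. Myc itself was at 5.33, 9.80 and 13.3 RPKM in WT libraries on day 0 and then at 26.1, 17.0 and 17.0 RPKM on day 3. In DKI libraries it was at 6.25, 8.23 and 14.7 RPKM on day 0 and then at 5.02, 22.7 and 18.2 RPKM on day 3.

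The 18 libraries held 29.5 M to 43.2 M mapped reads (median 36.4 M), as read from the values of 1 read in the table. The 594 member values stood for 167 to 31201 reads, and the counting error of the lowest was 7.74%. The labels name liver as the tissue, but of 5 hepatocyte markers 4 were at 0 in all libraries and the highest value of the other (Apoa1) was 0.0470 RPKM, whereas the monocyte marker Ly6c2 was at 953 to 1762.3 RPKM on day 0. Summed markers of monocyte-derived dendritic cells (6 genes) were at 4818.1 to 8860.0 RPKM in WT and 83.0 to 110.0 RPKM in DKI libraries on day 3, and those of macrophages (6 genes) at 237 to 564 and at 1729.6 to 3728.6 RPKM. Cycling markers (10 genes) summed to 606 to 1007.2 RPKM on day 0, to 79.9 to 259.6 RPKM on day 3 and to 18.2 to 222 RPKM on day 6. The 18.2 RPKM was that of DKI replicate 3 of day 6, beside 122 and 222 RPKM in DKI replicates 1 and 2. Myeloid progenitor markers (6 genes) summed to 752 to 1491.6 RPKM on day 0 and to 8.58 to 117 RPKM later. The part of these cell types in the member values was not tested.

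Replicate 1 of the DKI cells on day 3 stood apart in these genes. It had the lowest value of all 18 libraries for 29 of 33 members, where 16.2% of all 10417 expressed genes had their lowest value there. Within its group it was the lowest for 33 of 33 members, beside 59.1% of all genes. Its members were a median of 0.95 log2 units below the mean of the other 2 DKI libraries of that day (-0.95), where the median of all genes was -0.21. The summed RPKM of the members was 355 in this library and 773 and 710.1 in replicates 2 and 3. Its Myc value, 5.02 RPKM, was also the lowest of that group, its cycling markers summed to 87.9 RPKM beside 259.6 and 249.6, and its macrophage markers, at 3728.6 RPKM, were the highest of that day. In both genotypes the library names of replicate 1 on days 3 and 6 bear an older year than the rest. In the fits of the groups compared, counts, medians and changes that rest on the DKI cells of day 3 are therefore given with and without this library where it moved them by over 1.5 times. The fit of all 18 libraries was run only with it.

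**Figure D1:**
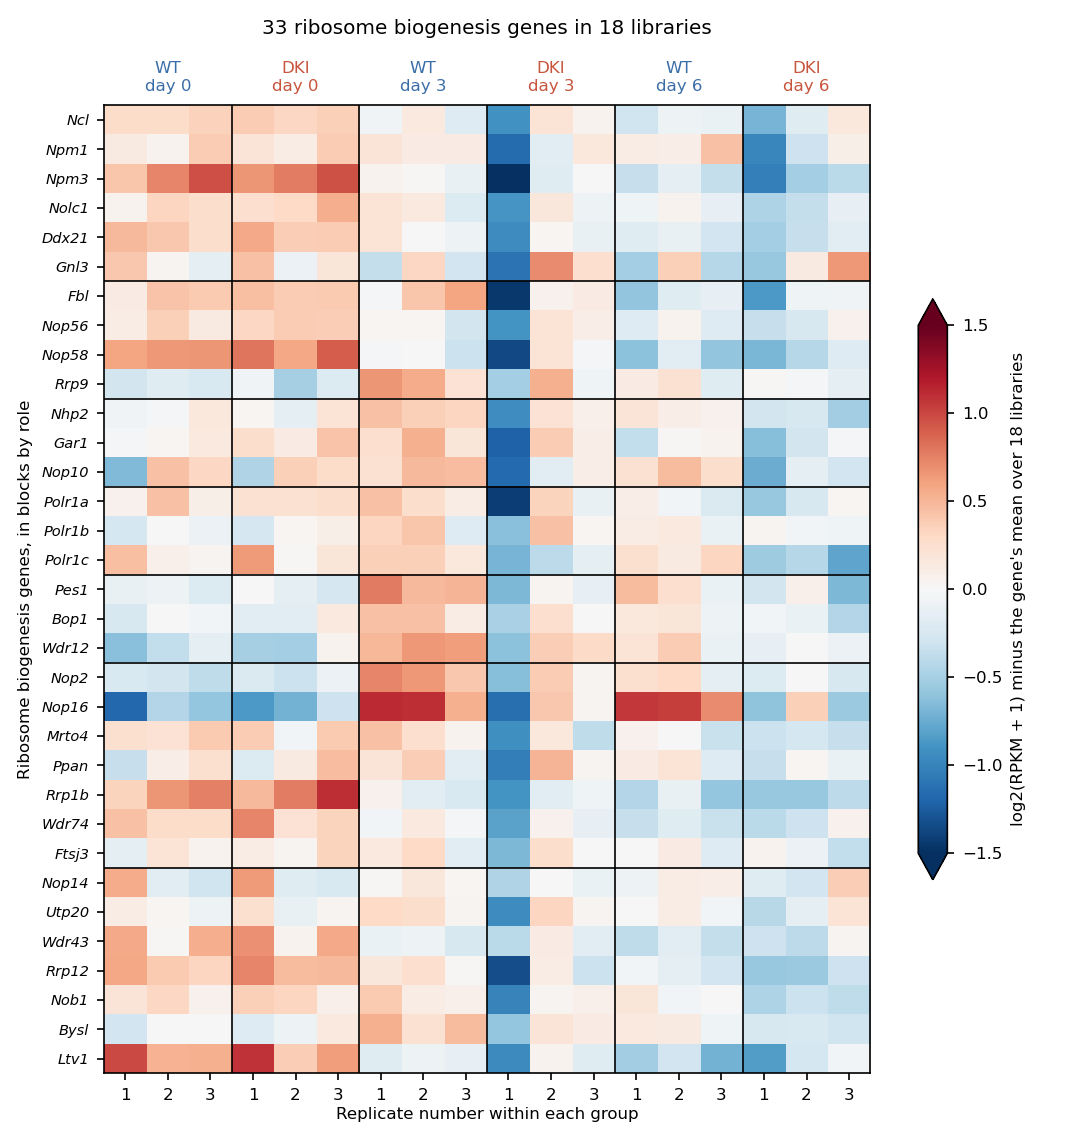
Each row is a ribosome biogenesis gene and each column a library; colour is log2(RPKM + 1) minus the gene's mean over the 18 libraries, and lines part the role groups and the sample groups. Replicate 1 of the DKI cells on day 3 is the column with the deepest blue, with the lowest value of all libraries for 29 of 33 genes.

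The members ranged from Npm1 (mean 92.2 RPKM over 18 libraries) to Polr1b (4.30 RPKM), with Ncl at 72.5, Nhp2 at 48.1, Ddx21 at 39.4 and Nop58 at 37.0 RPKM. Npm1 has processed copies elsewhere in the genome, and how reads that match several places were counted is not given in the sources used here, so its level is uncertain. In WT libraries the summed RPKM of the 33 genes was 824 ± 17.0 (SD, n = 3) before culture, 813 ± 57.0 on day 3 and 713 ± 33.0 on day 6. The sums of the DKI libraries were 864 ± 61.1, 613 ± 225 and 578 ± 83.6. The SD of the DKI cells on day 3 was the widest of the 6 groups.

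The first question was whether the absence of STAT5 tetramers altered the ribosome biogenesis genes in monocytes before GM-CSF. Before stimulation no member was called for DKI against WT. A call here is a Benjamini-Hochberg adjusted p under 0.05 in limma together with a fold change above 1.5, on log2(RPKM + 1), a scale that understates the change of genes with low values, and where no other fit is named it comes from a fit of the groups compared. Of 9179 genes fitted, 0 (0%) were called, and 0 members and 44 genes (0.479%) had an unadjusted p under 0.05. The log2 fold change was below 0 for 3 of 33 members, beside 52.1% of all genes. The members' median log2 fold change was 0.06, beside -0.00 for all genes, and their changes lay between -0.04 and 0.22. Gar1 had the largest, 0.22 (SE 0.13, adjusted p = 1 in limma).

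On day 3 the members lay lower in DKI than in WT cells, but none passed the test. For this comparison 3.21% of 9740 genes were called higher and 4.21% lower in limma, and 0 of 33 members were called in either direction, with 4 members and 2583 genes (26.5%) at an unadjusted p under 0.05. The log2 fold change was below 0 for 32 of 33 members, beside 61.4% of all genes, with a median of -0.49 beside -0.11. Without replicate 1 of the DKI cells it was below 0 for 24 of 33 members, beside 53.4%, and the median was -0.13, beside -0.03 for all genes, with 0 members called (beside 3.36% higher and 4.01% lower) and 4 members and 2516 genes (25.9%) at an unadjusted p under 0.05. The 2 groups did not overlap, with DKI lower, for 10 of 33 members with all libraries, beside 22.9% of all genes, and for 10 of 33 without that library, beside 26%. Nop16, a factor of the large subunit, had the largest difference (-1.15, SE 0.41, adjusted p = 0.143 in limma), and without that library it was -0.70 (SE 0.23, adjusted p = 0.137). The lowest adjusted p in limma, 0.0653, was that of Polr1c. In a fit of all 18 libraries, which share an estimate of the spread, 4 members (Polr1c, Pes1, Nop2 and Nop16) were called lower, beside 14% of all genes in either direction. On this day the dendritic cell and macrophage markers differed between the genotypes as given above, and neutrophil markers (7 genes) summed to 112 to 741 RPKM in WT and 734 to 1349.4 RPKM in DKI libraries. Mitochondrial genes took 2.00% to 3.97% of the summed RPKM in WT and 1.65% to 2.22% in DKI libraries. The part of these in the member values was not tested.

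**Figure D2:**
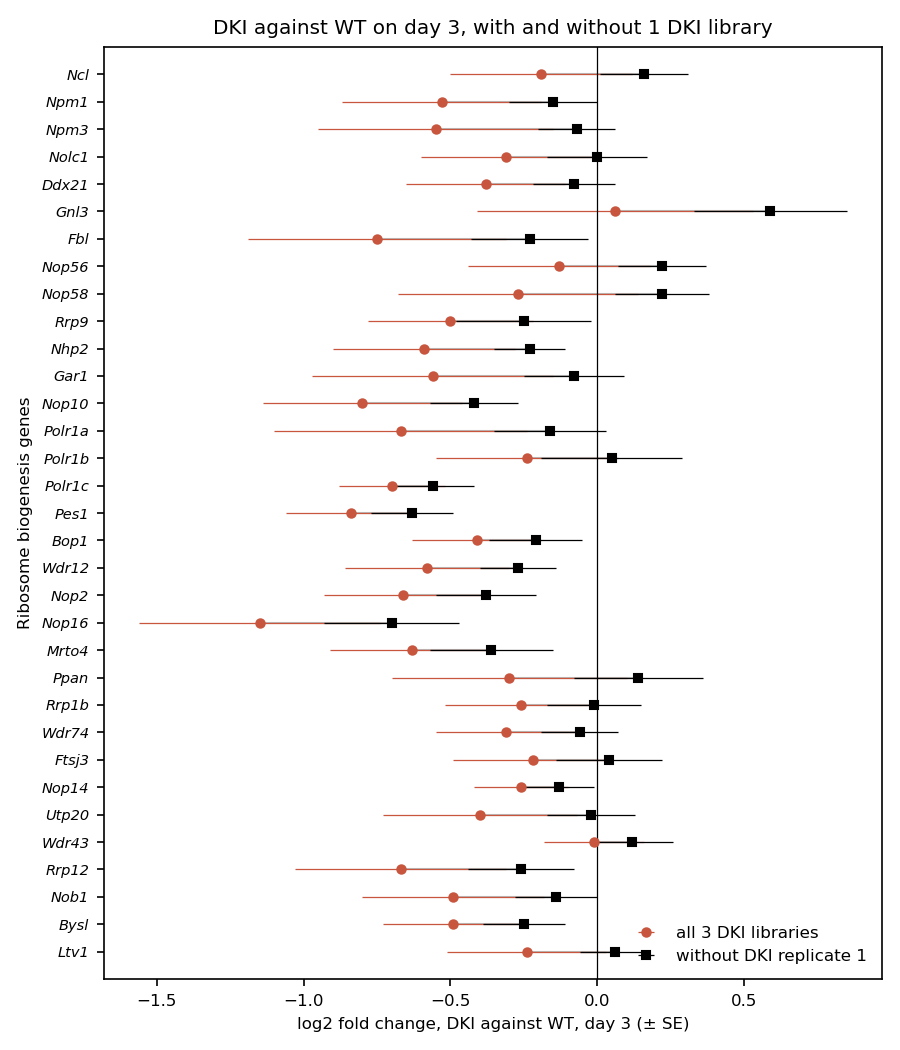
Points are the log2 fold changes of the 33 genes for DKI against WT on day 3 with their standard errors, from all 3 DKI libraries (circles) and without DKI replicate 1 (squares); the vertical line marks no difference. Without that library the median moves from -0.49 to -0.13 and the number of genes below 0 from 32 to 24.

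On day 6 1 member, Polr1c, was called for DKI against WT, a call lost with the replicate block (adjusted p = 0.0534), with no filter on RPKM (0.0517), with the libraries of the later year (0.19) and without 5 of the 6 libraries in turn. In this comparison 2.72% of 9842 genes were called higher and 4.82% lower in limma, and of the members 0 were called higher and 1 lower. The median log2 fold change of the members was -0.21, beside -0.17 for all genes, and it was below 0 for 28 of 33 members, beside 66.5%. The groups did not overlap, with DKI lower, for 10 of 33 members, beside 26.6% of all genes. Median centring of the libraries, which moves the median of all genes to 0, brought the members' median to -0.06. In the fit of all 18 libraries 2 members (Polr1c and Nop16) were called lower, beside 16% of all genes in either direction. Dendritic cell markers summed to 3673.7 to 9915.9 RPKM in the WT and 104 to 277 RPKM in the DKI libraries of that day, macrophage markers to 296 to 519 RPKM and 1277.7 to 4150.9 RPKM, and monocyte markers (8 genes) to 8939.2 RPKM in DKI replicate 3 beside 1671.4 and 2129.5 in the other 2. DKI replicate 3 of that day also had the lowest value of all 18 libraries for 16.2% of all genes and for 2 of 33 members. Mitochondrial genes took 3.39% to 4.13% of the summed RPKM in WT and 1.98% to 2.48% in DKI libraries. The part of these in the difference was not tested.

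The next question was how these genes changed in culture with GM-CSF in each genotype. No group was cultured without GM-CSF, so that the cytokine, culture and time cannot be told apart. The summed monocyte markers lay between 4027.0 and 5062.4 RPKM on day 0 and between 1105.5 and 1287.6 RPKM on day 3 in WT, and between 3797.9 and 4416.3 RPKM and then 1632.7 and 2950.9 RPKM in DKI libraries. Dendritic cell markers were at 7.37 to 17.1 RPKM and macrophage markers at 97.8 to 139 RPKM on day 0, and with the cycling and progenitor markers they stood at other levels on day 3, as given above. Mitochondrial genes took 2.71% to 3.11% of the summed RPKM on day 0 and 1.65% to 2.22% on day 3 in DKI libraries. In WT libraries they took 2.29% to 3.06% and then 2.00% to 3.97%. The part of these in the values was not tested. In WT cells 5 of the 33 genes rose and 4 fell between day 0 and day 3. For day 3 against day 0, 20.3% of 9938 genes were called higher and 22.8% lower in limma, and 5 members were called higher (Nop16, Wdr12, Nop2, Pes1 and Rrp9) and 4 lower (Ltv1, Nop58, Npm3 and Rrp1b). The members' median was 0.04, beside -0.05 for all genes, and the days did not overlap for 9 members with day 3 higher and 10 with day 3 lower, beside 28.8% and 32.2% of all genes. The calls of Nop16, Wdr12, Nop2, Pes1, Rrp9, Nop58 and Ltv1 held under all 13 alternative settings, with other scalings and without each library in turn. In DKI cells 13.1% of 9922 genes were called higher and 21.1% lower, and 0 members were called higher and 3 lower (Npm3, Rrp1b and Ltv1), with 9 members and 4697 genes (47.3%) at an unadjusted p under 0.05. The fit of all 18 libraries called 10 members lower in DKI, those 3 with Nolc1, Ddx21, Nop58, Polr1c, Mrto4, Wdr74 and Rrp12, beside 40.7% of all genes in either direction. The members' median in DKI cells was -0.55, beside -0.16 for all genes, and the days did not overlap for 0 members with day 3 higher and 13 with day 3 lower, beside 20.6% and 34.6%. The median was -0.14 without replicate 1 of day 3, beside -0.09. Without that library 1 member was called higher (Nop16) and 4 lower (Npm3, Rrp1b, Rrp12 and Nop58), beside 15.1% and 19.3% of all genes, and 8 members and 4869 genes (49.1%) were at an unadjusted p under 0.05. The days then did not overlap for 3 members with day 3 higher (Wdr12, Nop2 and Nop16) and 13 with day 3 lower, beside 28.9% and 37.9%.

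Whether the change in culture with GM-CSF differed between the genotypes was tested as an interaction over the 12 libraries of days 0 and 3. Of 10212 genes, 1.2% were called higher and 1.7% lower in limma, and 0 of 33 members were called, with 4 members and 1606 genes (15.7%) at an unadjusted p under 0.05. The difference was below 0 for 33 of 33 members, beside 60.7% of all genes, with a median of -0.47 beside -0.11. The comparison shares its libraries of day 3 with that of the genotypes on day 3. It also shares those of day 0 with that of the genotypes on day 0, where 3 of 33 members lay below 0. The sign of the difference therefore rests on both days. Without replicate 1 of the DKI cells on day 3 the difference was below 0 for 26 of 33 members, beside 53.6% of all genes, with a median of -0.20 beside -0.03. Again 0 members were called, beside 1.36% of all genes higher and 1.74% lower, with 3 members and 1463 genes (14.4%) at an unadjusted p under 0.05. Nop16 had the largest difference (-1.26, SE 0.52, adjusted p = 0.261 in limma), and Pes1 had the lowest adjusted p (-0.84, SE 0.25, adjusted p = 0.121). Without that library these differences were -0.81 (SE 0.37, adjusted p = 0.365) for Nop16 and -0.63 (SE 0.18, adjusted p = 0.111) for Pes1.

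**Figure D3:**
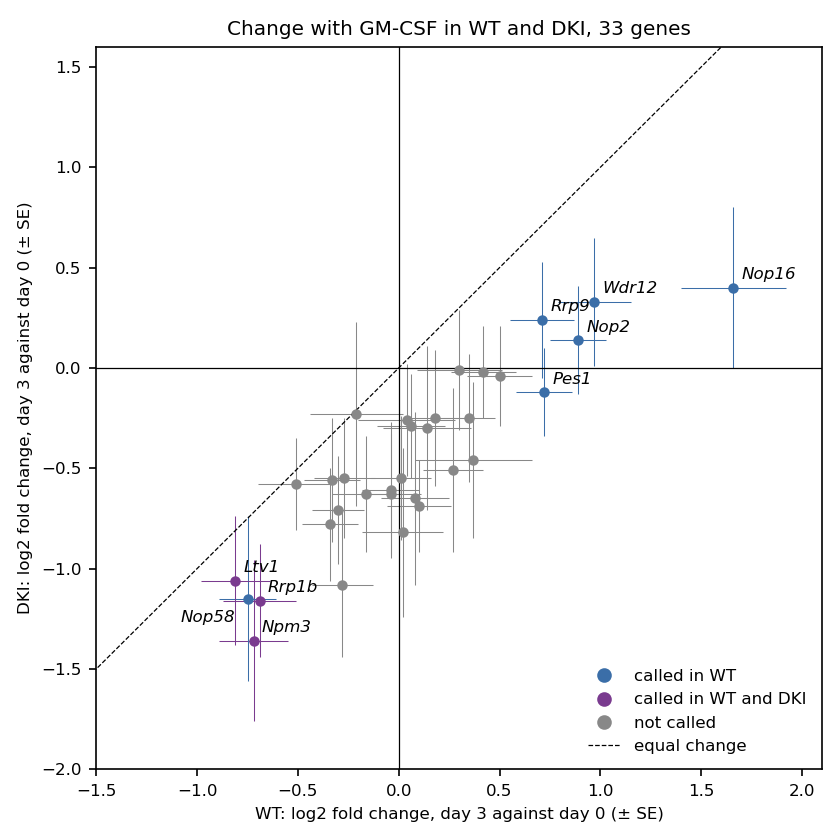
Each point is a ribosome biogenesis gene, with its log2 fold change from day 0 to day 3 in WT on the horizontal axis and in DKI on the vertical axis, both with standard errors; the dashed line marks equal change. With all libraries 5 of 33 genes were called higher in WT (20.3% of all genes) and 0 in DKI (13.1%), where without replicate 1 of day 3 Nop16 was called higher. Npm3, Rrp1b and Ltv1 were called lower in both, Ltv1 in DKI not without that library.

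Among the RNA polymerase I subunits, Polr1c was the member called lower in DKI than in WT cells, on day 6. POLR1C is a subunit shared by RNA polymerases I and III, whereas POLR1A and POLR1B form the catalytic core of RNA polymerase I. In WT libraries Polr1c was at 34.2, 26.2 and 25.5 RPKM on day 0, at 32.1, 32.0 and 27.8 RPKM on day 3 and then at 29.5, 27.2 and 31.3 RPKM on day 6. In DKI libraries it was at 39.0, 25.1 and 28.1 RPKM on day 0, at 14.9, 18.6 and 22.3 RPKM on day 3 and then at 16.8, 18.2 and 13.9 RPKM on day 6. The genotypes overlapped on day 0, and on days 3 and 6 all 3 DKI libraries lay below all 3 WT libraries. On day 6 Polr1c fell by 0.81 in DKI relative to WT (SE 0.15, adjusted p = 0.0325 in limma), a call that was lost with the replicate number as a block (adjusted p = 0.0534). Without DKI replicate 2 the call was kept, and without any other library of that day it was lost (-0.87 to -0.71, adjusted p = 0.0585 to 0.123). On day 3 its log2 fold change was -0.70 (SE 0.18, adjusted p = 0.0653), and without DKI replicate 1 it was -0.56 (SE 0.14, adjusted p = 0.0726). Its 18 values stood for at least 630 reads each. Polr1a and Polr1b were not called in any comparison, and on day 6 their log2 fold changes for DKI against WT were -0.21 and -0.07. On day 3 they were -0.67 and -0.24 with all libraries, and -0.16 and 0.05 without DKI replicate 1. In the DKI cells of day 3 Polr1a was at 2.65 RPKM in replicate 1 and at 11.2 and 7.99 RPKM in replicates 2 and 3, beside 9.48 to 12.2 RPKM in WT, so that the genotypes overlapped.

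Of the nucleolar scaffold proteins and chaperones, Npm3 fell in culture with GM-CSF in both genotypes. The group holds the RNA-binding protein nucleolin (Ncl), the histone chaperones NPM1 and NPM3, the scaffold protein NOLC1, the RNA helicase DDX21 and the GTPase nucleostemin (Gnl3). All 6 had a log2 fold change below 0 from day 0 to day 3 in WT and in DKI cells, with medians of -0.27 and -0.62, and 1 of the 6, Npm3, was called in each genotype. Of all genes 22.8% were called lower and 52.5% lay below 0 in WT, and 21.1% and 58.3% in DKI. Without replicate 1 of the DKI cells on day 3, 5 of the 6 were below 0 in DKI, with a median of -0.27. Npm3 was at 23.0, 28.8 and 34.2 RPKM in WT monocytes and at 17.7, 17.2 and 15.7 RPKM in WT cells on day 3. In DKI cells it was at 27.5, 29.5 and 33.9 RPKM on day 0 and then at 5.26, 14.9 and 17.1 RPKM on day 3. In neither genotype did the days overlap, and replicate 1 of the DKI cells lay far below its group. Npm3 fell by 0.72 in WT (SE 0.17, adjusted p = 0.0136 in limma), a call lost without replicate 3 of day 0 (-0.58, under the fold limit) or of day 3 (-0.67, adjusted p = 0.0525), and in the fit of all 18 libraries (adjusted p = 0.0601). It fell by 1.36 in DKI (SE 0.40, adjusted p = 0.0389), and without replicate 1 of day 3 it fell by 0.88 (SE 0.16, adjusted p = 0.0109). The DKI call was lost without any of the day 0 libraries and without replicate 2 of day 3 (adjusted p = 0.0518 to 0.106), and with no filter on RPKM (adjusted p = 0.0714). Npm1, the most abundant member, was at 97.8, 92.6 and 116 RPKM in WT and 102, 96.5 and 116 RPKM in DKI on day 0. It was at 102, 97.2 and 96.7 RPKM in WT and 39.5, 79.5 and 99.6 RPKM in DKI on day 3, then at 96.3, 95.3 and 121 RPKM in WT and 44.8, 71.7 and 94.8 RPKM in DKI on day 6. The WT libraries were level over the 3 days, replicate 1 of the DKI cells was low on both days of culture, and Npm1 was called in no comparison. Gnl3 was the sole member with a value above 0 for DKI against WT on day 3 with all libraries (0.06, SE 0.47, and 0.59, SE 0.26, without DKI replicate 1), and its DKI libraries of that day, at 6.96, 27.0 and 19.4 RPKM, lay on either side of the WT libraries at 12.4, 20.3 and 13.1 RPKM.

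Of the box C/D snoRNP genes, Nop58 fell and Rrp9 rose in WT cells. NOP56 and NOP58 are the core scaffold of these particles, fibrillarin (Fbl) is their methyltransferase, and RRP9 belongs to the U3 snoRNP, which guides cleavage of the precursor. Nop58 was at 51.7, 53.8 and 54.4 RPKM in WT monocytes, at 33.3, 34.1 and 26.9 RPKM on day 3 and then at 21.8, 30.0 and 22.3 RPKM on day 6. In DKI cells it was at 60.1, 51.3 and 64.5 RPKM on day 0, at 12.7, 39.5 and 33.7 RPKM on day 3 and then at 20.8, 25.0 and 29.7 RPKM on day 6. Every library of culture lay below every library of day 0, in both genotypes. Nop58 fell by 0.75 from day 0 to day 3 in WT (SE 0.14, adjusted p = 0.00528 in limma). In DKI its log2 fold change was -1.15 (SE 0.41, adjusted p = 0.0679), and without replicate 1 of day 3 it fell by 0.66 (SE 0.16, adjusted p = 0.0274). Rrp9, in contrast, was at 8.53, 9.15 and 8.85 RPKM in WT monocytes and at 17.3, 16.0 and 12.4 RPKM on day 3, with no overlap. It rose by 0.71 (SE 0.16, adjusted p = 0.0106 in limma). In DKI cells Rrp9 was at 10.1, 7.19 and 8.99 RPKM on day 0 and then at 7.10, 15.7 and 10.0 RPKM on day 3, where the days overlapped and the log2 fold change was 0.24 (SE 0.29, adjusted p = 0.543), or 0.48 (SE 0.24, adjusted p = 0.17) without replicate 1 of day 3. Fbl and Nop56 were called in no comparison, and Fbl had the lowest read number of all member values, in replicate 1 of the DKI cells on day 3 (3.66 RPKM, beside 12.3 and 12.8).

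The 3 measured box H/ACA genes were called in no comparison. NHP2, NOP10 and GAR1 are the partners of the pseudouridine synthase dyskerin, the product of Dkc1. Nhp2 was at 45.1, 46.4 and 52.5 RPKM in WT and 47.8, 42.9 and 54.4 RPKM in DKI monocytes. On day 3 it was at 64.2, 60.5 and 59.2 RPKM in WT and 24.1, 55.0 and 49.6 RPKM in DKI cells, and on day 6 at 53.8, 50.6 and 49.4 RPKM in WT and 38.7, 39.6 and 32.5 RPKM in DKI cells. The DKI libraries lay below the WT libraries on both days of culture, and the log2 fold changes were -0.59 (SE 0.31, adjusted p = 0.29 in limma) on day 3 and -0.47 (SE 0.14, adjusted p = 0.0945) on day 6. Without DKI replicate 1 the value of Nhp2 on day 3 was -0.23 (SE 0.12, adjusted p = 0.3). Nop10 had the same order of libraries, with log2 fold changes of -0.80 (SE 0.34, adjusted p = 0.191) and -0.71 (SE 0.20, adjusted p = 0.0725), and without that library it was at -0.42 (SE 0.15, adjusted p = 0.157) on day 3. Its level on day 0 was lower in replicate 1 of both genotypes (21.1 and 24.4 RPKM) than in the other libraries of that day (41.1 to 46.2 RPKM).

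The genes of the PeBoW complex, which is made of PES1, BOP1 and WDR12 and is needed for maturation of the large subunit RNAs, lay higher in WT cells on day 3 than on day 0. All 3 genes had a log2 fold change above 0 from day 0 to day 3, with a median of 0.72, and 2 were called higher, beside 20.3% of all genes called higher and 52.5% below 0. Pes1 was at 22.0, 22.5 and 20.5 RPKM in WT monocytes, at 41.4, 33.7 and 34.3 RPKM on day 3 and then at 33.5, 28.6 and 22.2 RPKM on day 6. In DKI cells it was at 23.8, 21.5 and 19.8 RPKM on day 0, at 14.5, 24.4 and 21.8 RPKM on day 3 and then at 19.4, 25.1 and 14.5 RPKM on day 6. The WT libraries of day 3 lay above those of day 0 and above all DKI libraries, and the DKI libraries of day 3 overlapped those of day 0. Pes1 rose by 0.72 in WT (SE 0.14, adjusted p = 0.00571 in limma), and its log2 fold change in DKI was -0.12 (SE 0.22, adjusted p = 0.687), which without replicate 1 of day 3 became 0.09 (SE 0.15, adjusted p = 0.662). For DKI against WT on day 3 it was -0.84 (SE 0.22, adjusted p = 0.0701), and without DKI replicate 1 it was -0.63 (SE 0.14, adjusted p = 0.0598). Wdr12 was at 2.38, 3.02 and 3.73 RPKM in WT monocytes and at 6.33, 7.17 and 7.06 RPKM on day 3, without overlap. It rose by 0.97 (SE 0.18, adjusted p = 0.0047 in limma), beside 0.33 in DKI (SE 0.32, adjusted p = 0.447), where it was at 2.68, 2.64 and 4.40 RPKM on day 0 and then at 2.39, 5.73 and 5.33 RPKM on day 3. The DKI value of Wdr12 was 0.65 (SE 0.24, adjusted p = 0.0811) when replicate 1 of day 3 was left out. Bop1 had a log2 fold change of 0.42 in WT (SE 0.16, adjusted p = 0.0598) and of -0.02 in DKI (SE 0.23, adjusted p = 0.948), or 0.18 (SE 0.17, adjusted p = 0.44) without that library.

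Among the other factors of the large subunit, Nop16 and Nop2 rose in WT cells. Nop16 was at 6.59, 11.7 and 10.5 RPKM in WT monocytes, at 36.5, 36.1 and 23.9 RPKM on day 3 and then at 35.0, 34.4 and 27.2 RPKM on day 6. In DKI cells it was at 8.47, 9.57 and 12.9 RPKM on day 0, at 6.85, 21.8 and 16.7 RPKM on day 3 and then at 10.3, 21.0 and 10.7 RPKM on day 6. All 6 WT libraries of culture lay above all DKI libraries, and in DKI only replicates 2 and 3 of day 3 and replicate 2 of day 6 were above the highest value of day 0. It rose by 1.66 in WT (SE 0.26, adjusted p = 0.00237 in limma), and in DKI its log2 fold change was 0.40 (SE 0.40, adjusted p = 0.463) with all libraries and it rose by 0.85 (SE 0.23, adjusted p = 0.0344) without replicate 1 of day 3. On day 6 the log2 fold change for DKI against WT was -1.21 (SE 0.29, adjusted p = 0.0534), which missed the threshold. Nop2, which encodes a methyltransferase of the large subunit RNA, was at 13.6, 13.1 and 12.1 RPKM in WT monocytes and at 27.3, 25.7 and 21.6 RPKM on day 3, without overlap. It rose by 0.89 (SE 0.14, adjusted p = 0.00292 in limma), beside 0.14 in DKI (SE 0.27, adjusted p = 0.706), where it was at 13.7, 12.6 and 15.0 RPKM on day 0 and then at 10.0, 21.3 and 16.5 RPKM on day 3. The DKI value of Nop2 was 0.42 (SE 0.17, adjusted p = 0.106) when replicate 1 of day 3 was left out.

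Rrp1b, a nucleolar factor of the same subunit, fell in both genotypes. It was at 6.25, 8.16 and 8.76 RPKM in WT and at 7.06, 8.79 and 11.4 RPKM in DKI monocytes, and at 5.05, 4.15 and 3.91 RPKM in WT and 2.11, 4.13 and 4.52 RPKM in DKI cells on day 3. No library of day 3 reached those of day 0. Rrp1b fell by 0.69 in WT (SE 0.18, adjusted p = 0.0176 in limma), and it fell by 1.16 in DKI (SE 0.28, adjusted p = 0.0218), where without replicate 1 of day 3 it fell by 0.90 (SE 0.22, adjusted p = 0.0285). The WT call was lost without replicate 2 of day 0 or replicates 2 or 3 of day 3 (-0.67 to -0.63, adjusted p = 0.0524 to 0.0646) and with the replicate block (0.0598), and the DKI call without replicates 2 or 3 of day 0 (adjusted p = 0.067 and 0.0668). Wdr74, a factor of the large subunit, had the highest mean of its role group over 18 libraries, but not within the groups of day 3 or day 6. It was at 27.4, 24.3 and 24.4 RPKM in WT and 33.8, 23.4 and 25.4 RPKM in DKI monocytes. It was at 19.4, 22.1 and 19.6 RPKM in WT and 11.0, 20.9 and 18.2 RPKM in DKI cells on day 3, then at 15.5, 17.4 and 15.6 RPKM in WT and 14.8, 15.8 and 20.9 RPKM in DKI cells on day 6. Day 3 lay below day 0 in both genotypes, but Wdr74 was not called in either (adjusted p = 0.0975 in WT and 0.0809 in DKI, in limma). In the fit of all 18 libraries it was called lower in DKI (adjusted p = 0.00922), as was Mrto4 (-0.63, adjusted p = 0.0281). Without replicate 1 of day 3, in the fit of the groups compared, the DKI values were -0.46 (SE 0.20, adjusted p = 0.122) for Wdr74, beside -0.71 with it, and -0.36 (SE 0.24, adjusted p = 0.278) for Mrto4. Mrto4, like Ppan and Ftsj3, was not called in any comparison in the fits of the groups compared.

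**Figure D4:**
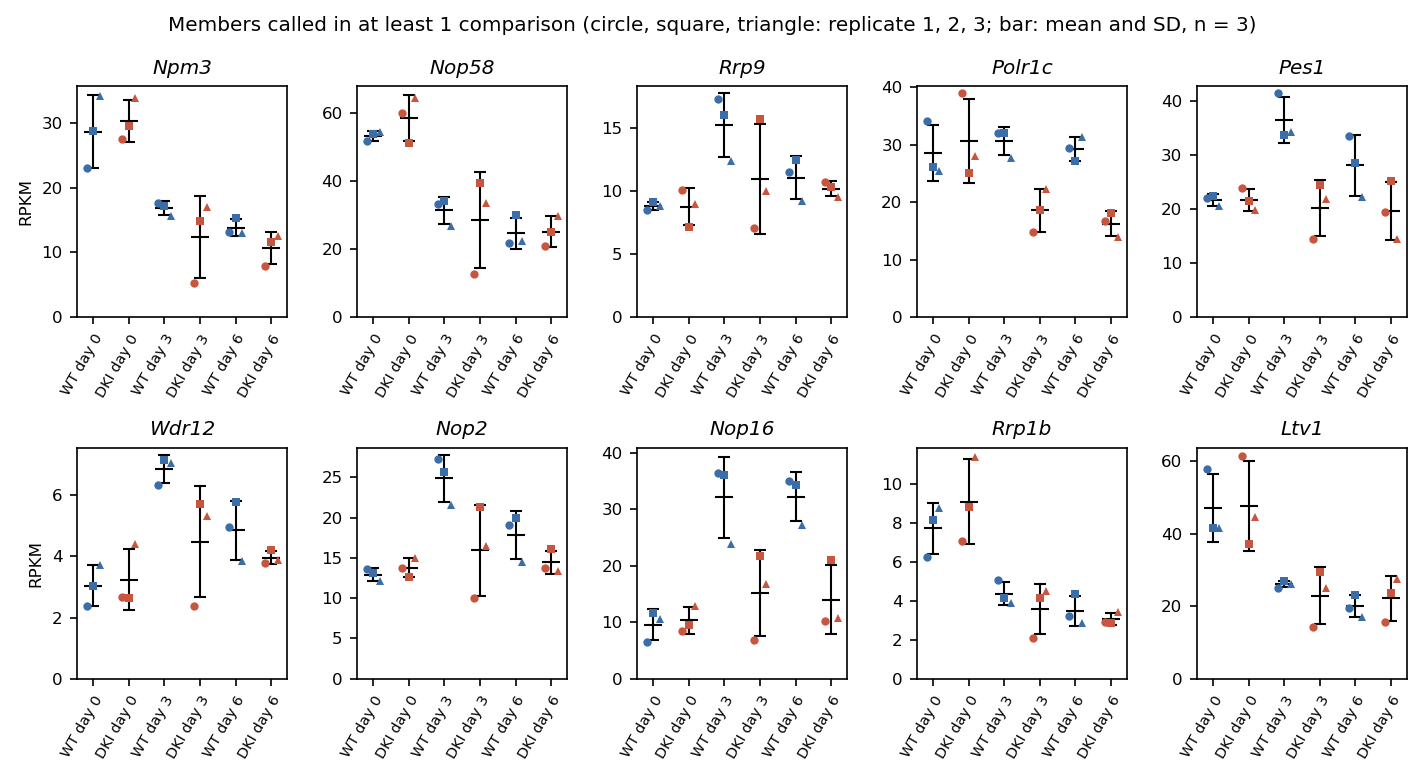
RPKM of the 10 members called in at least 1 comparison, by group; symbols are the 3 replicates of a group and bars the mean and SD. Pes1, Wdr12, Nop2, Nop16 and Rrp9 are higher in WT cells on day 3 than on day 0, Npm3, Nop58, Rrp1b and Ltv1 are lower, and in each of these panels the circle of the DKI cells on day 3 (replicate 1) is the lowest point of its group.

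Of the 7 small subunit factors, Ltv1 was the member called. LTV1 accompanies the precursor of the small subunit and leaves it late in its assembly. Ltv1 was at 57.8, 41.5 and 41.6 RPKM in WT and 61.4, 37.1 and 44.5 RPKM in DKI monocytes. It was at 25.1, 26.9 and 26.2 RPKM in WT and 14.2, 29.5 and 25.0 RPKM in DKI cells on day 3, then at 19.6, 23.2 and 17.1 RPKM in WT and 15.5, 23.5 and 27.6 RPKM in DKI cells on day 6. Each library of culture lay below each library of day 0. Ltv1 fell by 0.81 from day 0 to day 3 in WT (SE 0.17, adjusted p = 0.00741 in limma), and it fell by 1.06 in DKI (SE 0.32, adjusted p = 0.0406). The DKI call was lost without replicate 1 of day 3 (-0.76, SE 0.24, adjusted p = 0.0548), and also without replicate 3 of that day or any library of day 0 (-1.22 to -0.86, adjusted p = 0.0651 to 0.115). It was also lost with no filter on RPKM (adjusted p = 0.0676), with median centring (0.0505), with quantile normalization (0.0621) and with the replicate block (0.0922). Bysl, which encodes a factor that accompanies the small subunit precursor, had a log2 fold change of 0.50 in WT (SE 0.16, adjusted p = 0.037), under the fold limit. Nop14, Utp20 and Wdr43, of the processome that forms on the early precursor, Rrp12, an export factor, and Nob1, the endonuclease of the last cleavage, were called in no comparison in the fits of the groups compared with all libraries (Rrp12 was called lower in DKI on day 3 against day 0 in the fit of all 18 libraries, adjusted p = 0.00335 in limma). Rrp12 was at 2.41 RPKM in replicate 1 of the DKI cells on day 3 and at 8.27 and 5.87 RPKM in the other 2. On day 0 it was at 10.9 to 13.3 RPKM in DKI. With all libraries its log2 fold change in DKI was -1.08 (SE 0.36, adjusted p = 0.0585 in limma). Without replicate 1 of day 3 it fell by 0.67 (SE 0.20, adjusted p = 0.0471 in limma).

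From day 3 to day 6 no member was called, and no gene was. In WT cells 0 of 9613 genes (0%) passed the test in limma, with 10 members and 722 genes (7.51%) at an unadjusted p under 0.05. The members' log2 fold change was below 0 for 31 of 33, beside 56.4% of all genes, with a median of -0.25 beside -0.03, and the days did not overlap, with day 6 lower, for 13 of 33 members, beside 8.25% of all genes. Fbl had the largest change (-0.62, SE 0.20, adjusted p = 0.632), from 11.5, 16.0 and 18.1 RPKM on day 3 to 7.45, 10.2 and 10.7 RPKM on day 6. Cycling markers summed to 79.9 to 212 RPKM in WT on day 3 and to 94.2 to 175 RPKM on day 6, and their ranges overlapped. In DKI cells 0 of 9540 genes (0%) passed the test, with 0 members and 93 genes (0.975%) at an unadjusted p under 0.05, and the members' median was -0.02, beside -0.07 for all genes. The change was below 0 for 20 of 33 members, beside 64.8%, and the days did not overlap, with day 6 lower, for 0 members, beside 3.29% of all genes. Without replicate 1 of day 3 the median was -0.37, beside -0.14, the change was below 0 for 32 of 33 members, beside 71.5%, and the days did not overlap, with day 6 lower, for 16 members, beside 20.2%. Of the members 4 were then at an unadjusted p under 0.05, as were 232 genes (2.42%), and 0 genes were called. Bysl had the largest change in DKI cells (-0.17, SE 0.24, adjusted p = 0.999 in limma), with Polr1c also at -0.17. Without replicate 1 of day 3 Bysl was at -0.42 (SE 0.15, adjusted p = 0.906), and the largest change was that of Npm3 (-0.56, SE 0.24, adjusted p = 0.906). For the difference between genotypes in this change 0 of 9985 genes (0%) were called, with 0 members and 89 genes (0.891%) at an unadjusted p under 0.05. The largest member difference was that of Fbl (0.71, SE 0.56, adjusted p = 1), and without that library it was 0.20 (SE 0.37, adjusted p = 1). Nop16 then had the largest difference (-0.51, SE 0.41). With all libraries the members' median was 0.18, beside -0.05 for all genes. The difference was below 0 for 3 of 33 members, beside 58.8%. Without that library the median was -0.12 for the members and for all genes (-0.12). The difference was then below 0 for 24 of 33 members, beside 70.2%, with 0 members and 94 genes (0.941%) at an unadjusted p under 0.05.

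The wider pathway was described with 140 further genes in the table (of 144 listed), which encode other processome and subunit factors, RNA polymerase I machinery, snoRNP assembly factors and the RNA exosome. Between day 0 and day 3, 8 of 137 fitted genes were called higher and 25 lower in WT in limma, and 0 higher and 31 lower in DKI, with medians of -0.13 and -0.40. Over all genes 20.3% were called higher and 22.8% lower in WT and 13.1% and 21.1% in DKI, with medians of -0.05 and -0.16. Without replicate 1 of the DKI cells on day 3, 1 further gene was called higher and 25 lower in DKI, with a median of -0.23, beside 15.1%, 19.3% and -0.09 for all genes. In WT the largest rises were those of Riok3 (1.20, adjusted p = 0.00383), an atypical kinase, Cd3eap (0.96, adjusted p = 0.0166), which encodes a subunit of RNA polymerase I, and Pno1 (0.87, adjusted p = 0.00167), a small subunit factor. The largest falls in WT were those of Tcof1 (-1.47, adjusted p = 0.000445), which encodes the nucleolar protein treacle, Riok2 (-1.27, adjusted p = 0.00183) and Krr1 (-1.25, adjusted p = 0.00135). In DKI they were Riok2 (-1.55, adjusted p = 0.00327), Taf1d (-1.53, adjusted p = 0.00862), of the RNA polymerase I initiation complex, and Nop53 (-1.27, adjusted p = 0.00576).

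For DKI against WT, 1 of 136 further genes was called higher and 4 lower on day 3, and 0 higher and 3 lower on day 6, with medians of -0.24 and -0.16. Over all genes 3.21% were called higher and 4.21% lower on day 3 and 2.72% and 4.82% on day 6, with medians of -0.11 and -0.17. Without DKI replicate 1 of day 3, 1 was called higher and 2 lower on that day, with a median of -0.07 beside -0.03. Tcof1 rose in DKI relative to WT on day 3 (0.74, adjusted p = 0.029 in limma, 0.0569 with the replicate number as a block), at mean RPKM of 20.6 and 11.9. Rcl1, an endonuclease of the small subunit pathway, fell by 1.45 on day 3 (adjusted p = 0.0211), and again fell by 1.45 on day 6 (adjusted p = 0.0372, 0.0514 with the block), from mean RPKM of 19.3 and 22.6 in WT to 6.64 and 7.34 in DKI. Riok3 fell by 0.96 (adjusted p = 0.0451) and Sdad1 fell by 0.82 (adjusted p = 0.0435, 0.0724 with the block) on day 3. Without DKI replicate 1 of that day the calls of Tcof1 (0.69, adjusted p = 0.0399), Rcl1 (-1.20, adjusted p = 0.0133) and Sdad1 (-0.67, adjusted p = 0.0442) held and that of Riok3 was lost (-0.87, adjusted p = 0.065). On day 6 Gtpbp4, a GTPase of the large subunit, fell by 1.10 (adjusted p = 0.0357) and Imp3, of the U3 snoRNP, fell by 0.77 (adjusted p = 0.0437, 0.0625 with the block). On day 0, from day 3 to day 6 and for the differences between genotypes in change with time, 0 further genes were called in limma.

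A feature shared by some members is that they host snoRNA genes, the guides of the modification machinery, inside their own introns or exons. In the GENCODE annotation of the same build, 6 of the 33 genes (18.2%) hold 20 snoRNA genes on their own strand, beside 177 of 10010 expressed genes (1.77%). Nop56 holds 5, Nop58 4, Ncl, Gnl3 and Wdr43 3 each, and Ppan 2. This is a property of the annotation and was not tested. The libraries were made with an mRNA kit, and snoRNAs were not analysed here. The called host was Nop58, whose values are given above.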

How the data were processed

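RNA-seq was made from WT and DKI monocytes and MDCs in 18 libraries. Per the study's methods, single-end reads were aligned by the authors to mm10 (Subread) and counted per RefSeq gene (featureCounts), and RPKM values were deposited, 1 column per library, of which all 18 were used. Versions, strand setting and the treatment of multiply mapping reads are not given in the sources used here. Symbols and coordinates were taken from RefSeq on the same build by gene identifier (20082 matched, 216 did not).

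The 33 genes, the role groups, the other gene lists and the tests were chosen with earlier results of these data known. Each comparison was fitted across all genes whose mean RPKM exceeded 2 in any of its groups, on log2(RPKM + 1), with limma 3.58.1 (lmFit, eBayes with trend) in R 4.3.3, and calls needed an adjusted p under 0.05 and more than a 1.5-fold difference, as in the study. Full statistics are given for members called and otherwise for the member with the largest change in a comparison. Values by library are given for the member of each role group with the highest mean over 18 libraries and for members called for genotype. Further members' values were added after they were seen, and of the further pathway genes at most 3 per comparison and direction are named, with Myc. Depth was recovered from values of 1 read in 1177 receptor genes, and all 594 member values were then whole reads within 0.05 reads. No test on reads was run, since the deposited unit is RPKM.

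Replicate numbers come from the labels. Deviations from the group means went together in WT and DKI libraries that share a number (correlations 0.69 to 0.87 on day 0, 0.16 to 0.36 on day 3 and 0.34 to 0.41 on day 6), so blocked values are given where they change a call, whereas numbers did not pair day 0 with day 3 (-0.20 to 0.18). Libraries of days 3 and 6 that share a number also went together (0.13 to 0.67 in WT and 0.32 to 0.73 in DKI). With the block 0 genes were called between those days in either genotype. Libraries of a group correlated at 0.902 to 0.97 over 10417 genes, and 0 pairs were identical. Alternatives were a pseudocount of 0.1, no filter, median centring, quantile normalization, all 18 libraries in 1 fit, the replicate block, the libraries of the later year and each library left out. On simulated data for DKI against WT on day 3 (9529 genes), 36% of 100 genes changed by a log2 value of 1 and 79% of 100 changed by 2 were recovered, with 7 false among 122 calls. In that simulation genes were drawn independently, without the shift shared by the members in DKI replicate 1 of day 3. Changes were placed only in genes above a WT level that Polr1b, Wdr12 and Rrp1b did not reach. The recovered and false shares may not hold for such genes or libraries. A planned search of protein sequences was not run, since no protein table was used here. Python 3.11.15, numpy 2.4.6, pandas 2.3.3 and matplotlib 3.10.9 were used for the rest.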

Additional observations from a re-analysis of the deposited data

How the results depend on the processing

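No alternative reversed the log2 fold change of a called member or, in comparisons with none, of the member with the largest change. For DKI against WT on day 3, where no member was called, median centring and quantile normalization each called 1 member lower and the fit of all 18 libraries 4. Over all genes these settings called 741, 795 and 1359 in either direction, beside 723 in the main fit. On day 6 the member called lower, Polr1c, was lost with no filter on RPKM (0 members called), with the replicate block (0) and with the libraries of the later year (0), while the fit of all 18 libraries called 2; leaving out each library gave 0 to 2, and Polr1c kept its call when DKI replicate 2 was left out and lost it without any other library. Over all genes no filter, the block, the libraries of the later year and the fit of all 18 libraries called 187, 719, 38 and 1573 on day 6. The main fit called 742, and leaving out each library gave 90 to 984. The members' median on day 6 was -0.06 under median centring and -0.06 under quantile normalization. In the main fits of day 3 against day 0, 20.3% of all genes were called higher and 22.8% lower in WT, and 13.1% and 21.1% in DKI. The fit of all 18 libraries called 40.7% of all genes in DKI in either direction. For day 3 against day 0 in WT, 2 to 4 members were called lower and 5 to 6 higher as each library was left out, with 2 lower without WT replicate 3 of day 3. In DKI, 1 was called lower with no filter and 10 in the fit of all 18 libraries, 1 was called higher with the libraries of the later year, and leaving out each library gave 0 to 1 higher and 0 to 4 lower (0 lower without replicate 2 or replicate 3 of day 0, 1 without replicate 1 of day 0). The median genotype difference in change was -0.13 from day 0 to day 3 with the libraries of the later year, and -0.12 to 0.41 from day 3 to day 6 as each library was left out. In the other 359 settings, counts stayed within 1.5 times and medians within 1 SD between replicates. That SD was 0.079 for DKI against WT on day 0, but 0.407 on day 3 and 0.43 for day 3 against day 0 in DKI. A median of -0.09 for DKI against WT on day 3 with the libraries of the later year, beside -0.49, therefore counted as within it. Days 0 and 3 share only a number: with the replicate block, 5 members were called higher and 3 lower in WT (Rrp1b was lost, adjusted p = 0.0598) and 0 higher and 2 lower in DKI (Ltv1 was lost, adjusted p = 0.0922). Over all genes the block then called 3788 in WT and 3179 in DKI in either direction. On day 6 Polr1c was lost with the block (adjusted p = 0.0534 in limma), and it changed no other named member's call. With 3 libraries a group, log2 changes near 1 were often missed in the simulated data.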
